A study of Mus musculus with 69 samples.

Results

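The zinc finger gene cluster described here is a stretch of the distal part of mouse chromosome 2 that holds Zfp970 and Gm14403. Its members were all protein-coding genes with symbols starting Zfp or Gm in a window of 4 Mb of GRCm39, where they span chr2:174852002-177720294. The rule found 44 genes, 14 with a Zfp and 30 with a Gm symbol, among 56953 genes in the count tables. The stretch was selected on earlier results of these data, the higher levels of Zfp970 and Gm14403 under the metabolic stressors, so the stressor values of both genes, and the calls that include them, are a description of that choice and test nothing.

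KRAB zinc finger proteins are repressors of transcription. Their tandem C2H2 zinc fingers read DNA sequence, and their KRAB domain recruits the corepressor Trim28 and with it enzymes such as the histone methyltransferase Setdb1, which place silencing marks on chromatin. The genes lie in clusters that grew by duplication, and many of the proteins bind transposable elements.

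The RNA came from primary cells of male C57BL/6 mice and was compared by poly(A) RNA-Seq. The study describes 24 h in serum-free medium before treatment and the use of this medium during it. As the time of the treatment, the labels give 24 h for all libraries. WT VSMC are vascular smooth muscle cells with EGFR, KO VSMC lack it through a floxed Egfr allele and a Cre driven by the smooth muscle SM22 promoter, and EC are heart endothelial cells sorted with beads for CD31 after removal of CD45-positive cells. The medium held albumin as the fatty acid carrier in all conditions. The conditions were Control, HG + FFA (20 mM glucose with free fatty acids, which the labels give as 100 µM and the study's methods as oleate and palmitate), AII + NA (30 nM angiotensin II with 300 nM of what the labels call epinephrine and the study norepinephrine) and ALL, which combined them. Libraries of a set shared the animal, the passage and the time of treatment. WT VSMC had 4 libraries in each condition. KO VSMC had 4, but 3 under ALL. EC had 9 under Control and under AII + NA, and 10 under HG + FFA and under ALL. A single animal gave EC sets 17 and 18. The sample titles call all EC WT. By the animal labels, however, EC sets 15 and 16 came from animals that also gave KO VSMC. Such animals would have carried the floxed allele and the Cre. All VSMC carried the batch label B1 and all EC the label B2, so cell type and batch cannot be told apart.

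Library totals were 23626664 to 37801299 counts for WT VSMC, 23238979 to 35120866 for KO VSMC and 17166133 to 43240489 for EC. Egfr was at 226 to 500 FPM (fragments per 1000000, after scaling for library size) in WT VSMC and at 0.534 to 40.2 in KO VSMC, where set 5 held the highest values. The summed level of 8 endothelial markers (Pecam1, Cdh5, Kdr, Tie1, Tek, Erg, Emcn and Egfl7) was 446 to 4889 FPM in 7 of the EC sets. In EC sets 9, 11 and 13 it was only 51.3 to 136 FPM. The highest WT VSMC library, in set 2, was at 72.2 FPM, and the medians were 11.8 FPM in WT VSMC and 7.06 FPM in KO VSMC. The 12 libraries of these EC sets held 3383 to 11141 FPM of 6 fibroblast markers. They also held 814 to 3936 FPM of 8 smooth muscle markers, with a median of 2704.5 FPM against 519 FPM in the other EC sets. Comparisons that rest on EC are therefore also given without these 3 sets. Fibroblast markers were likewise abundant in WT VSMC (3922 to 11334 FPM), beside a median of 1032 FPM of the 8 smooth muscle markers. In bulk RNA, fewer cells of a type and less RNA per cell cannot be told apart.

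The members are close relatives. A C2H2 finger pattern was found in the annotated coding sequence of 38 of the 44 genes, with 1 to 25 fingers and a median of 12.5, and a KRAB-type stretch in 41. Zfp970 had 14 fingers and Gm14403 had 9. When every 100-base stretch of a gene's exons was looked up in the genome, 9 genes shared at least 20% of these stretches in a group around Zfp968, and 14 in a group around Gm4724. A further 6 fell in pairs, and 15 were single by this measure. In the Zfp968 group, no stretch of Zfp968 or Zfp969 occurred at only 1 place, and 100% of those of Zfp969 were also found in Zfp968. Gm14403 was the opposite case, with 96.6% of its stretches at 1 place. Zfp970 lay between, with 58.3% at 1 place and 32.4% inside exons of other members, 19.4% in Zfp968 alone. Zfp970 and Gm14403 shared 0% with each other. Since the authors counted reads with several alignments, the levels of near-identical copies may hold each other's reads, and members of a group are not independent measurements.

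Zfp970 spans chr2:177156498-177183583, and Gm14403 spans chr2:177189969-177204572, both on the plus strand. They are neighbours with 6385 bases between them, and their starts are 33.5 kb apart. The stretch upstream of the start was printed for both, and for Zfp968, the most abundant member, to show how alike these 200 bases are. The sequences were read from the GRCm39 genome on the plus strand, and capitals mark bases that differ from Zfp970. The Zfp970 stretch ends just before its annotated gene start. Those of Gm14403 and Zfp968 are the best match to it around their own starts.
Zfp970, chr2:177156298-177156497: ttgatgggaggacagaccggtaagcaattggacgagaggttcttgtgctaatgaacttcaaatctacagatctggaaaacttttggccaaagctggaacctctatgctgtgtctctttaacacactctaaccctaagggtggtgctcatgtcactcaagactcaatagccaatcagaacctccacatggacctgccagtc
Gm14403, chr2:177189767-177189966: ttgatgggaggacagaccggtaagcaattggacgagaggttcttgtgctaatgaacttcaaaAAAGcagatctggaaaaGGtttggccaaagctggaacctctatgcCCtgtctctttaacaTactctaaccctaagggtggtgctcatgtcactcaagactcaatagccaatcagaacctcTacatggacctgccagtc
Zfp968, chr2:175214023-175214222: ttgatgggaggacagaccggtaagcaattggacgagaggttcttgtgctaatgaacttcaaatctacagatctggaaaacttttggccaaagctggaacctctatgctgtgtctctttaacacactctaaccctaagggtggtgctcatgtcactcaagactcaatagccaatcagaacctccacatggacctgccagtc

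The 200 bases of Zfp968 were identical to those of Zfp970, and Gm14403 differed at 10 bases (95% identity). A RefSeq promoter was found for 29 members. Of the other 28, 24 were at least 90% identical to Zfp970 over 200 bases of its promoter, at the best match near their own. This window overlaps most of the printed bases but also runs past the annotated start of Zfp970. Motifs were searched on both strands of the whole table entry, from 250 bases before to 50 after the start. CCAAT, the letters bound by the factor NF-Y, was in 27 of 29 members and in 37.9% of all 27025 promoters. AGGTCA, a nuclear receptor half-site, was in 18 of 29 members and in 16.04% of all promoters. It was present in the entry of Zfp970, outside the 200 bases printed, and absent from those of Gm14403 and Zfp968. The RefSeq starts lie 37 (Zfp970), 50 (Gm14403) and 0 (Zfp968) bases after the annotated gene starts. The entries therefore do not cover the same bases, and this is not a difference found over matching bases. Neither DR1, the direct repeat of AGGTCA read by PPAR receptors, nor CACGTG, an E-box, was in any of the 29, against 0.04% and 7.24% of all promoters.

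All 44 members had at least 1 count in some library, but 6 of them (Gm14444, Gm11009, Gm14408, Gm14401, Zfp1010 and Gm14406) never reached 20 counts. The others spanned a wide range, as the plot of member levels shows. Averaged over the conditions, Zfp968 and Zfp969 were the highest in every cell type, at 60.4 and 47.7 FPM in WT VSMC, 75.5 and 59.3 FPM in KO VSMC and 72.4 and 65.3 FPM in EC. They made up 15.5% and 12.2% of the summed level in WT VSMC. The next members in WT VSMC were Gm14308 (21.6 FPM), Gm4724 (21.1), Gm14296 (17.7), Gm14434 (16.5), Gm2026 (15.7) and Gm4631 (14.1). KO VSMC had the same 8 leading members. In EC, Gm4631 gave way to Zfp1009 at 21.7 FPM. Per kilobase of exon, Gm4724 was the highest in all 3 cell types, at 8.02 FPM per kb (WT VSMC), 9.96 (KO VSMC) and 11.3 (EC). By FPM, Zfp970 ranked 9th of the members (WT VSMC), 16th (KO VSMC) and 20th (EC), and Gm14403 ranked 30th, 34th and 33rd.

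**Figure D1:**
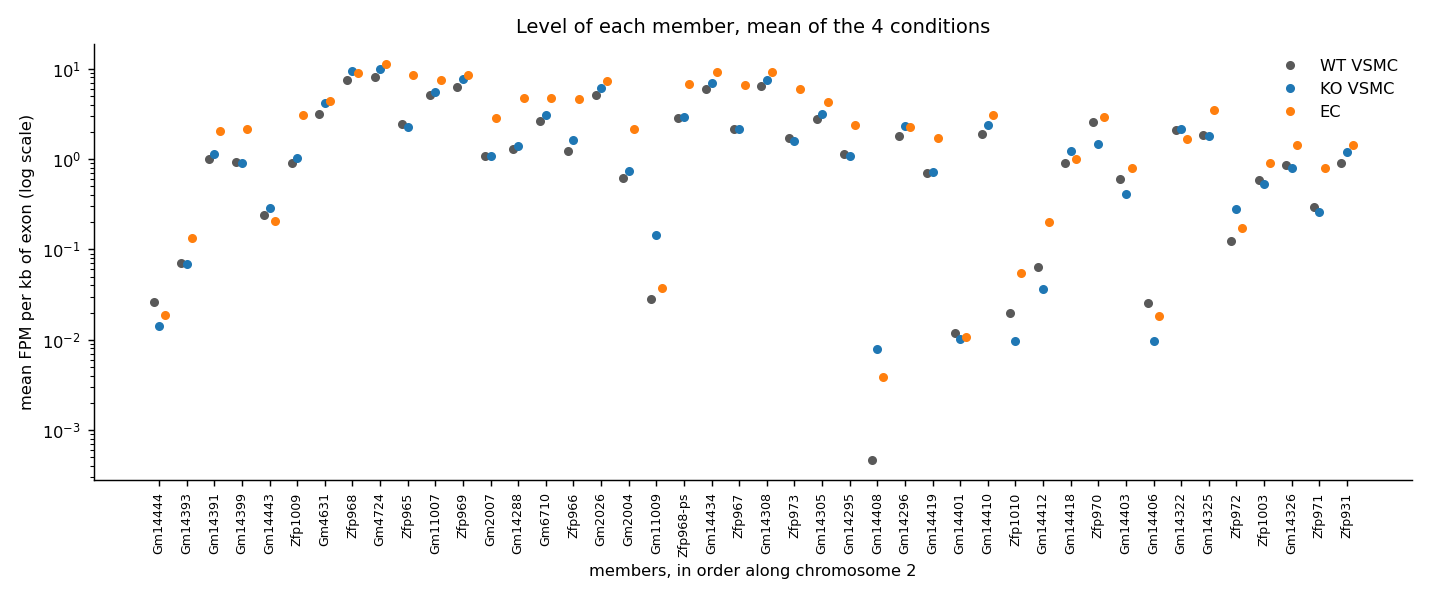
Mean FPM per kb of exon (log axis) of each of the 44 members, in their order along chromosome 2, for WT VSMC, KO VSMC and EC, each averaged over the 4 conditions. Gm4724 is the highest in each cell type, at 8.02, 9.96 and 11.3 FPM per kb, and the 6 members that never reached 20 counts lie at 0.146 FPM per kb or lower.

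HG + FFA combines high glucose with fatty acids, and its effect is given against Control. In WT VSMC, 2 of 36 members tested were called higher under it (edgeR, FDR under 0.05), Zfp970 and Gm14403, and none lower. Of all 16905 genes tested, 0.538% were called and 0.319% were called higher. As the cluster was chosen for this contrast, the count is a description. Neither gene was called without set 3 or when the set was left out of the model, and only Zfp970 was called without set 1 or without set 2. With the set left out of the model, edgeR called 0 of all 16905 genes, and without set 3 it called 23 of 16954.

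Zfp970 in WT VSMC was at 4.41, 9.53, 5.93 and 14.3 FPM in the Control libraries of sets 1 to 4, and at 23.9, 16.04, 23.7 and 25.2 FPM under HG + FFA. All HG + FFA libraries lay above all Control libraries, and set 2 had the smallest step. Within a set, HG + FFA over Control gave a ratio of 3.22 ± 1.82 (SD, n = 4), ranging from 1.68 to 5.42. The fitted log2FC was 1.47 (SE 0.22). Gm14403, expressed at a lower level, was at 1.77, 2.78, 1.36 and 4.99 FPM under Control and at 4.54, 5.16, 4.89 and 6.46 FPM under HG + FFA. It was higher in every set, but its highest Control library overlapped the HG + FFA range. Its ratio was 2.33 ± 0.989 (SD, n = 4), with a log2FC of 1.06 (SE 0.22).

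Under AII + NA, Zfp970 in WT VSMC was at 4.97, 7.62, 5.28 and 7.75 FPM, within the Control range. With ALL it was at 18.2, 18.3, 16.9 and 21.1 FPM, again above all Control libraries, and the log2FC was 1.20 (SE 0.22). Gm14403 had 2.30, 2.39, 1.18 and 2.72 FPM under AII + NA and 2.86, 3.85, 3.56 and 5.12 FPM under ALL, which was higher than Control in 4 of 4 sets, with a log2FC of 0.59 (SE 0.22). Adding the humoral stressors to HG + FFA left Zfp970 at a log2FC of -0.27 (SE 0.21) and Gm14403 at -0.47 (SE 0.21) relative to HG + FFA alone.

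In KO VSMC, the values of Zfp970 under Control were 6.78, 7.00, 1.73 and 5.53 FPM in sets 5 to 8. Under HG + FFA they were 10.3, 7.00, 7.19 and 16.1 FPM. The ratio was 1.0006 in set 6 and 4.15 in set 7. In set 7 the median level over all members had a ratio of 2.02, and the summed level had a ratio of 1.21. The mean ratio was 2.40 ± 1.42 (SD, n = 4) and the log2FC was 0.97 (SE 0.27). Under ALL, sets 6 to 8 were at 7.06, 4.85 and 20.7 FPM, a log2FC of 0.998 (SE 0.297). Gm14403 was at 3.58, 1.67, 0.534 and 2.13 FPM under Control and at 3.31, 1.71, 1.13 and 4.55 FPM under HG + FFA, so that the ranges overlapped and 3 of 4 sets were higher. No member was called in KO VSMC under HG + FFA, where 0.439% of 17538 genes were, and Zfp970 and Gm14434 were the 2 members with an unadjusted p under 0.05, 1 higher and 1 lower, against 6.36% and 6.07% of all genes. DESeq2 called 1 member there, Zfp970, where it called 544 of 32381 genes. Without set 5 edgeR also called Zfp970 as the only member, where it called 1442 of 16821 genes. The HG + FFA effect in WT VSMC exceeded that in KO VSMC by 0.52 (SE 0.37) for Zfp970 and by 0.63 (SE 0.35) for Gm14403 on the log2 scale.

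In EC, Zfp970 ranged from 5.41 over a median of 9.17 to 27.4 FPM under Control (n = 9) and from 9.001 over 20.3 to 32.5 FPM under HG + FFA (n = 10). The ranges overlapped, and the Control library of set 17 was the highest Control at 27.4 FPM, but 8 of 9 sets were higher than their own Control. Set 11 was the exception, with 9.06 FPM under Control and 9.001 FPM under HG + FFA. The ratio was 1.95 ± 0.896 (SD, n = 9) and the log2FC was 0.86 (SE 0.17). Under ALL, 9 of 9 sets were higher, with a ratio of 1.78 ± 0.899 (SD, n = 9) and a log2FC of 0.71 (SE 0.17). Zfp970 was the only member edgeR called in EC under HG + FFA, where 3.53% of 17148 genes were called, 1.64% higher. DESeq2 called 2 members there, Zfp970 and Zfp971, where it called 998 of 36539 genes. Gm14403 had a median of 4.04 FPM under Control and 5.53 FPM under HG + FFA, with a ratio of 1.40 ± 0.505 (SD, n = 9). Without EC sets 9, 11 and 13, the log2FC under HG + FFA was 0.83 for Zfp970 and 0.42 (SE 0.25) for Gm14403, against 0.44 (SE 0.22) for Gm14403 over all sets. Without set 17 that of Zfp970 was 0.95. Both genes were higher than Control in the same set in 4 of 4 WT VSMC sets, 3 of 4 KO VSMC sets and 7 of 9 EC sets under HG + FFA.

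**Figure D2:**
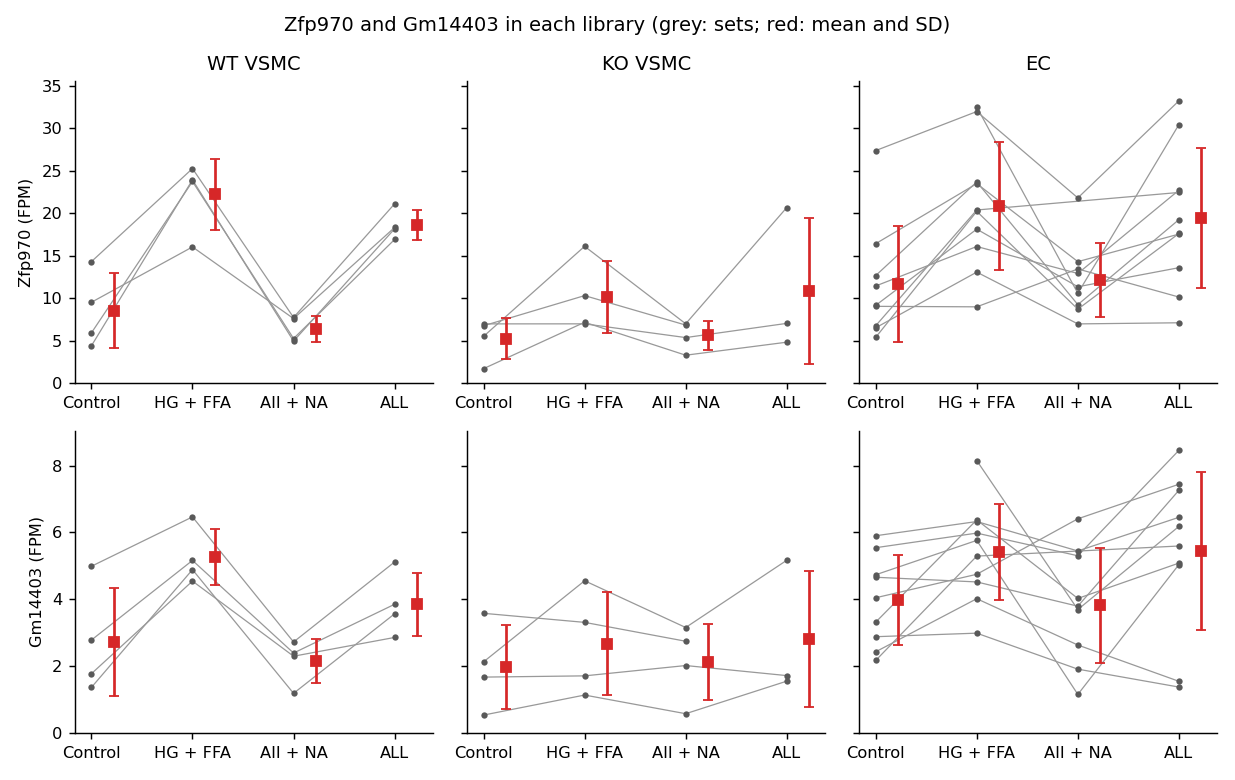
FPM of Zfp970 (upper row) and Gm14403 (lower row) in each library of WT VSMC, KO VSMC and EC under the 4 conditions. Grey lines join the libraries of a set, also across a missing condition, and red squares with bars give the mean and SD. In WT VSMC, Zfp970 lies at 4.41 to 14.3 FPM under Control, at 16.04 to 25.2 FPM under HG + FFA and at 4.97 to 7.75 FPM under AII + NA.

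No other member was called by edgeR under HG + FFA. DESeq2 called 1 other, Zfp971 in EC (DESeq2 adjusted p = 0.044), where edgeR gave a log2FC of 0.44 (SE 0.15, edgeR adjusted p = 0.089). In WT VSMC their log2FC ran from -0.19 to 0.41, with a median of 0.09 over 34 members tested against -0.01 over all genes. The largest were Gm14399 (0.41, SE 0.15), Gm14325 (0.40, SE 0.15) and Gm14288 (0.37, SE 0.15). None of these 34 was called, and 4 had an unadjusted p under 0.05, all higher, against 5.29% of all genes. In KO VSMC the median was -0.07 over 35 members, from -0.68 to 0.36. In EC it was 0.10 over 36 members, from -0.35 to 1.61. The highest EC value, that of Gm14412, had a standard error of 0.63 and came from a gene with 0 to 64 counts. Without EC sets 9, 11 and 13 the median was 0.09, edgeR called 0 of these 36 members, 0 had an unadjusted p under 0.05, and Gm14412 was at 0.85 (SE 0.62). Zfp968 and Zfp969, which share the most exonic sequence with Zfp970, had a log2FC of 0.01 (SE 0.09) and 0.05 (SE 0.09) in WT VSMC. The summed level of all members changed by less than 1 SD of its ratios in KO VSMC and EC, with ratios to Control of 0.998 ± 0.172 (SD, n = 4) and 1.10 ± 0.245 (SD, n = 9). In WT VSMC it was 1.10 ± 0.0788 (SD, n = 4), higher in 4 of 4 sets. Without Zfp970 and Gm14403 it was 1.06 ± 0.0643, still higher in 4 of 4 sets.

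**Figure D3:**
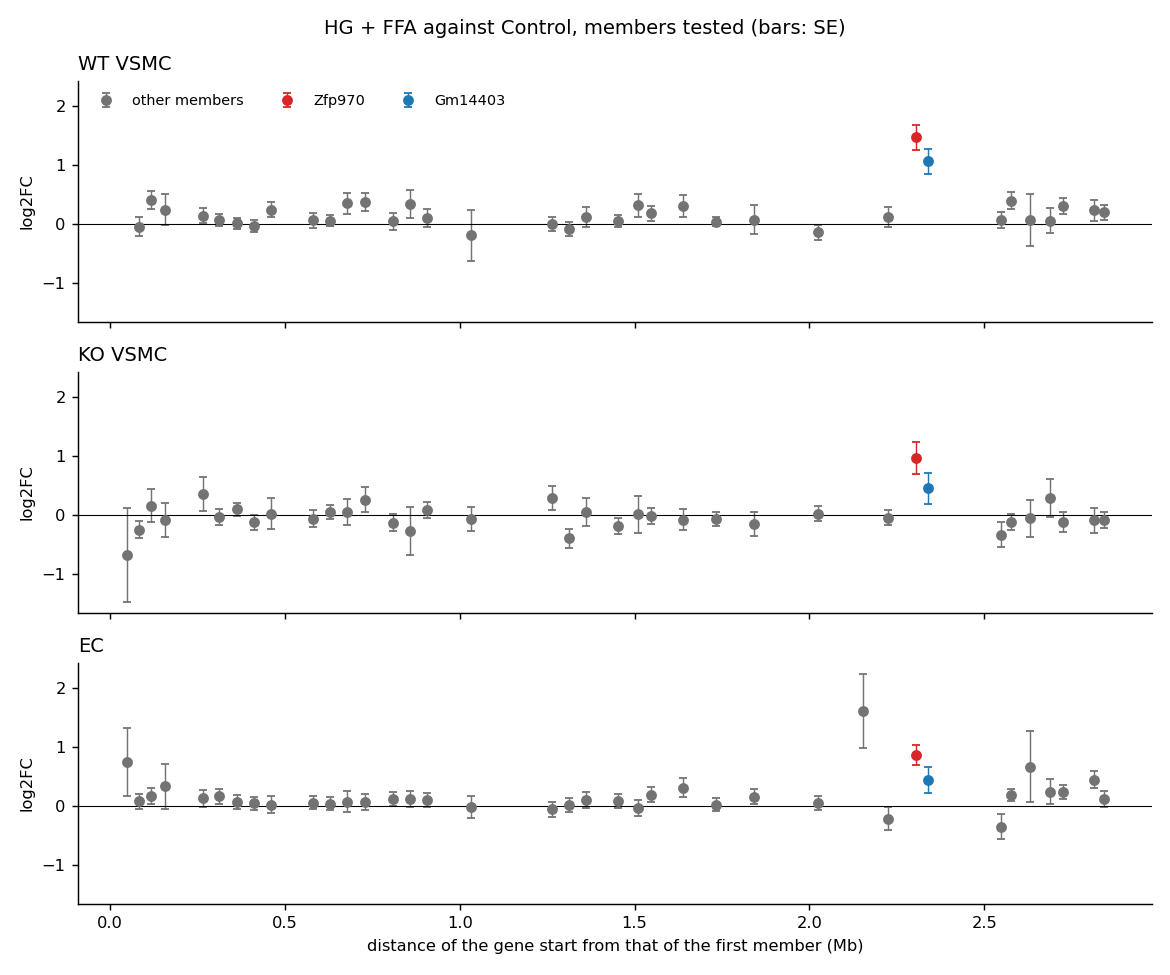
Log2FC of HG + FFA against Control with its SE for each member tested, placed by the distance of its start from that of the first member (Mb), with a panel for each cell type. Zfp970 (red) and Gm14403 (blue) lie above the other members tested in WT VSMC (1.47 and 1.06) and KO VSMC (0.97 and 0.45), whereas in EC (0.86 and 0.44) Gm14412 lies above both at 1.61 with a wide SE.

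Genes around the cluster were compared to see whether the whole region moved. Of 19 flanking protein-coding genes within the stretch or 1 Mb on either side, 16 were tested in WT VSMC, none was called under HG + FFA, and their median log2FC was -0.02. Of 408 Zfp genes elsewhere in the genome, 362 were tested in WT VSMC and none was called, with a median log2FC of 0.05 and 20 higher and 13 lower at an unadjusted p under 0.05. In EC, 6 of 363 of these other Zfp genes were called higher and 1 lower under HG + FFA, where 1.64% of all genes were called higher. Without EC sets 9, 11 and 13 it was 3 higher and 1 lower, where 227 of all 17464 genes were called higher. A list of 4 genes known to respond to fatty acids (Pdk4, Angptl4, Cpt1a and Plin2) served as a check of the treatment. KO VSMC and EC each had 4 of the 4 called, all higher. WT VSMC had 1, Pdk4, and the 3 others were higher there at an unadjusted p under 0.05. Pdk4, which restrains glucose oxidation, had a log2FC under HG + FFA of 1.52 (WT VSMC), 1.63 (KO VSMC) and 1.20 (EC), and was called in each (edgeR, adjusted p = 0.0067, 0.0017 and 9.9e-08).

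The KRAB partners were followed as a list of 37 genes, all tested. In WT VSMC with HG + FFA, edgeR called 0 of them, with 4 higher and 2 lower at an unadjusted p under 0.05. In KO VSMC 2 rose, where 0.439% of all genes were called, and in EC 1, where 1.64% of all genes were called higher. Resf1, a cofactor in the silencing of retroelements, rose in KO VSMC (log2FC 0.68, SE 0.13, edgeR adjusted p = 0.030) and in EC (log2FC 0.71, SE 0.12, edgeR adjusted p = 0.00028). When EC sets 9, 11 and 13 were left out, 4 of the 37 rose in EC, where 227 of all 17464 genes were called higher. Among them was Resf1 (log2FC 0.74, SE 0.09, edgeR adjusted p = 3.2e-05). In WT VSMC its log2FC was 0.63 (SE 0.17, edgeR adjusted p = 0.12). Chd3, a chromatin remodeller, rose in KO VSMC (log2FC 0.48, SE 0.10, edgeR adjusted p = 0.042). Under ALL, Dnmt1, the maintenance DNA methyltransferase, rose in WT VSMC (log2FC 0.30, SE 0.06, edgeR adjusted p = 0.0070), and Resf1 rose in KO VSMC (0.72) and EC (0.61, and 0.57 without EC sets 9, 11 and 13). Trim28 and Setdb1 were not called, with log2FC from -0.12 (Setdb1, WT VSMC, ALL) to 0.15 (Trim28, WT VSMC, ALL) over the HG + FFA and ALL comparisons with Control of all libraries.

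AII + NA did not yield a called member in any cell type. In WT VSMC, where 0.0532% of all genes were called, 6 of 36 members had an unadjusted p under 0.05 and all 6 were lower (edgeR), against 4.44% of all genes, and DESeq2 called 0. These were Zfp967 (log2FC -0.52, SE 0.17), Gm14399 (-0.38, SE 0.16), Gm14391 (-0.36, SE 0.16), Zfp968 (-0.25, SE 0.09), Gm14434 (-0.25, SE 0.12) and Zfp969 (-0.21, SE 0.09). They were chosen after their values were seen, and at least 96.0% of the 100-base stretches of Zfp967, Zfp968 and Zfp969 were shared with another of the 3. The median over the 36 members was -0.18 against -0.01 over all genes, and the other Zfp genes had a median of -0.08. In KO VSMC 3 of 37 members had an unadjusted p under 0.05, all higher, and in EC 2 of 38, both higher, against 3.92% and 2.75% of all genes, with medians of 0.10 and 0.08. Of all genes, 0% were called there by edgeR in either, and DESeq2 called 0 members. With EC sets 9, 11 and 13 left out, edgeR called 0 members in EC under AII + NA, with a median of 0.10 and an unadjusted p under 0.05 for 1 member, Gm14412. The difference between genotypes was tested for each member, and 0 were called by edgeR or DESeq2 in any of the 3 stressor conditions, where edgeR called 0% of all genes for HG + FFA and AII + NA and 0.0109% for ALL. For HG + FFA 1 member had an unadjusted p under 0.05 with a higher effect (1.33% of all genes), and for ALL 1 with a lower effect (3.22%). For AII + NA, 7 of 37 had an unadjusted p under 0.05, all with a lower effect in WT VSMC, against 4.97% of all 18339 genes. The summed level under AII + NA was 0.879 ± 0.123 of Control in WT VSMC (SD, n = 4), higher in 1 of 4 sets, and 1.10 ± 0.130 in KO VSMC (SD, n = 4), higher in 3 of 4 sets.

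Under ALL, 1 member was called in WT VSMC and in EC, Zfp970 in both, where 7.45% and 3.18% of all genes were called, 3.92% and 1.14% higher. No member was called in KO VSMC under ALL, where 0.399% of genes were, and 4 of 37 had an unadjusted p under 0.05, all higher, against 4.88% of all genes, while DESeq2 called 0. The call in EC was lost without EC sets 9, 11 and 13 (log2FC 0.68), without EC sets 15 and 16 (log2FC 0.54), with only the Control and ALL libraries in the fit (log2FC 0.69, edgeR adjusted p = 0.083) and with the animal in place of the set as block (log2FC 0.72, edgeR adjusted p = 0.073), which joins sets 17 and 18.

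The level of the members by cell type did not enter the choice of the cluster. Between Control libraries, 12 of 37 members tested were higher in EC than in WT VSMC and 0 lower (edgeR, FDR under 0.05), where 15% of all 17638 genes were called and 8.12% were called higher. The median log2FC was 0.72 over the members against 0.05 over all genes. Of the 12, 7 belonged to the 9 members of the Zfp968 group, and 3 to the 14 members of the Gm4724 group. The remaining 2 were Zfp971 and Gm14325. The medians were 1.74 in the Zfp968 group, 0.57 in the Gm4724 group and 0.62 in the 10 tested single genes.

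Gm14288 had the largest difference, at 4.56, 4.42, 4.74 and 6.14 FPM in the WT VSMC Control libraries and from 10.5 over a median of 14.8 to 48.9 FPM in EC. The groups did not overlap, and the log2FC was 2.05 (SE 0.40, edgeR adjusted p = 0.0047). Zfp973 had 3.27, 4.90, 3.13 and 5.93 FPM in WT VSMC and 7.13 to 34.8 FPM in EC (log2FC 1.95, SE 0.40, edgeR adjusted p = 0.0061). Zfp966 had 1.83, 4.94, 3.51 and 5.06 FPM in WT VSMC and 7.82 to 27.2 FPM in EC (log2FC 1.89, SE 0.41, edgeR adjusted p = 0.0078). The lowest EC library was above the highest WT VSMC library for each of these genes.

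In the same group, Zfp965 (log2FC 1.84), Zfp1009 (1.74), Zfp967 (1.60) and Zfp968-ps (1.24) were called as well, with edgeR adjusted p-values of 0.0079, 0.012, 0.012 and 0.021. The abundant pair of the group was not called. Zfp968 was at 51.8, 67.8, 79.0 and 62.1 FPM in WT VSMC and from 43.1 over 71.0 to 125.5 FPM in EC, with overlapping groups and a log2FC of 0.19 (SE 0.26, edgeR adjusted p = 0.64). Zfp969 had a log2FC of 0.41 (SE 0.26, edgeR adjusted p = 0.28). In the Gm4724 group, Gm2007 (1.57), Gm2004 (1.49) and Gm14419 (1.20) were called. Gm2007 was at 1.99 to 2.71 FPM in WT VSMC and at 4.24 to 10.4 FPM in EC, which did not overlap (SE 0.31, edgeR adjusted p = 0.0047). Zfp971 had a log2FC of 1.30 and Gm14325 of 0.999. Over 17 alternative settings, Gm14288, Zfp966 and Gm2007 were called in all, and Zfp973, Zfp965, Zfp1009 and Zfp967 in all but the one with only EC sets 9, 11 and 13. The other calls were less stable. Gm14419 lost its call in 9 of the 17 (log2FC 0.66 to 1.49, edgeR adjusted p up to 0.40), Gm14325 in 7, Zfp971 in 5, and Gm2004 and Zfp968-ps in 4 each, in each case also without WT VSMC set 1 and without WT VSMC set 3. Zfp970 (0.48, SE 0.45) and Gm14403 (0.57, SE 0.45) were not among the members called.

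**Figure D4:**
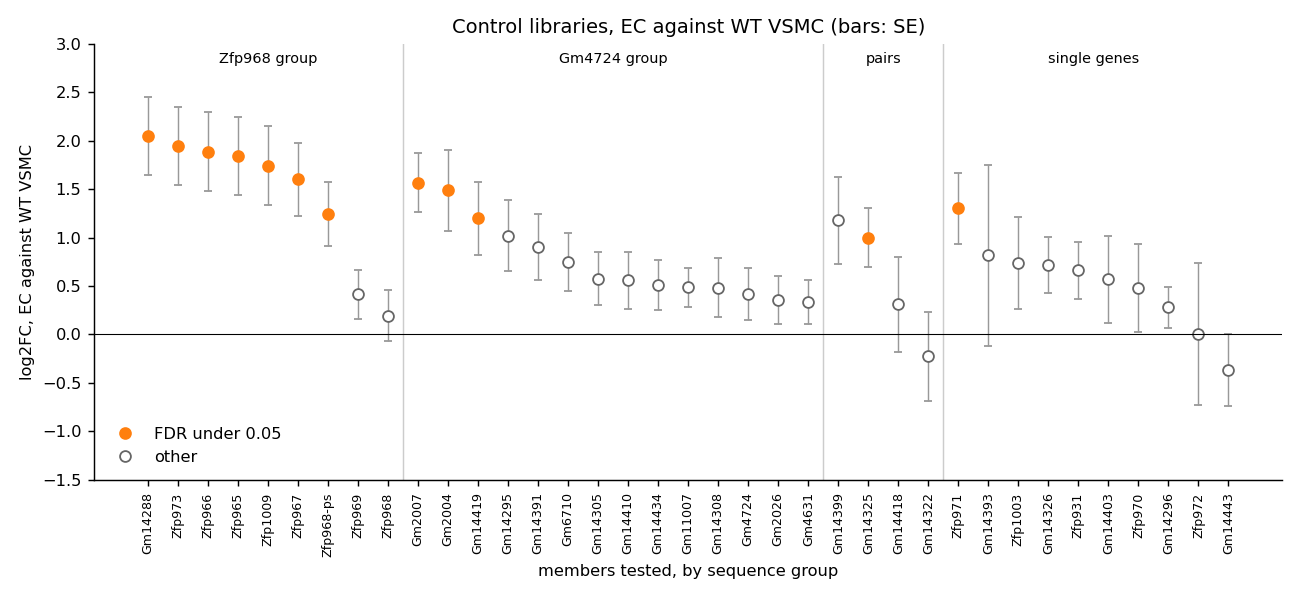
Log2FC of EC against WT VSMC in Control libraries with its SE for the 37 members tested, arranged by sequence group and then by size. Filled points passed an FDR of 0.05. In the Zfp968 group 7 members lie between 1.24 and 2.05, while Zfp969 and Zfp968 lie at 0.41 and 0.19.

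The groups of EC and WT VSMC Control libraries did not overlap for 9 of 37 members, all higher in EC, where 3.11% of all genes tested were higher without overlap. The libraries of the other conditions, which were not used in this fit but come from the same sets and so are repeat measures of the same cultures, gave 12 of 37 members under HG + FFA (4.18% of all genes), 13 under AII + NA (5.79%) and 9 under ALL (5.13%). None was lower in EC without overlap in any condition. Against KO VSMC, the numbers were 9 under Control (3.16%), 14 under HG + FFA (5.69%), 7 under AII + NA (4.73%) and 5 under ALL (6.0%). Without EC sets 9, 11 and 13 the members higher in EC than in WT VSMC without overlap were 11 under Control (9.71% of all genes), 16 under HG + FFA (11.4%), 25 under AII + NA (12.8%) and 12 under ALL (9.58%).

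Batch label and cell type divide these libraries in the same way, so for this difference in levels they cannot be told apart. The markers of cell types are given as a description. In Control libraries, endothelial markers were at 52.6 to 131 FPM in EC sets 9, 11 and 13. WT VSMC had 3.40 to 72.2 FPM, with the highest value in set 2 and the next at 12.8 FPM. Fibroblast markers were at 713 to 4985 FPM in the other EC sets and at 1470 to 6300 FPM in KO VSMC. The 7 called members of the Zfp968 group summed to 30.9, 40.6, 35.1 and 48.8 FPM in the WT VSMC Control libraries and to 18.3 to 46.7 FPM in KO VSMC. In EC sets 9, 11 and 13, which were low in endothelial markers, the sum was 133, 140 and 62.3 FPM. In the other 6 EC Control libraries it was 83.6 to 271 FPM. The sum of Zfp968 and Zfp969 was 93.6 to 139 FPM in WT VSMC and 82.3 to 238 FPM in EC. The 7 members were picked as called in these same Control libraries, so that their separation from WT VSMC is a product of the choice and the plot against endothelial markers is a description. The part of other cell types in the result was not tested. Without EC sets 9, 11 and 13, 15 members were called higher, where 14.8% of all genes were, and with these 3 sets as the only EC libraries 3 members were (Gm2007, Gm14288 and Zfp966), against 1.75% of all genes. The largest differences without the 3 sets were again those of Gm14288 (log2FC 2.17, SE 0.41) and Zfp973 (2.09, SE 0.41). Without set 17, which was the highest for the summed level of the cluster, 11 were called (7.76% of all genes higher), and without WT VSMC set 1 or set 3 only 7 (3.06% and 3.1%). Set 9 came from the same animal as WT VSMC set 1. Between these Control libraries, Zfp966 was at 19.8 FPM in EC against 1.83 FPM in WT VSMC, and Zfp968 at 104.8 against 51.8 FPM. Other members were lower in the EC library, such as Gm14322 (1.73 against 4.86 FPM) and Gm6710 (8.72 against 10.1 FPM). The share of all genes higher in this single pair of libraries was not computed.

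**Figure D5:**
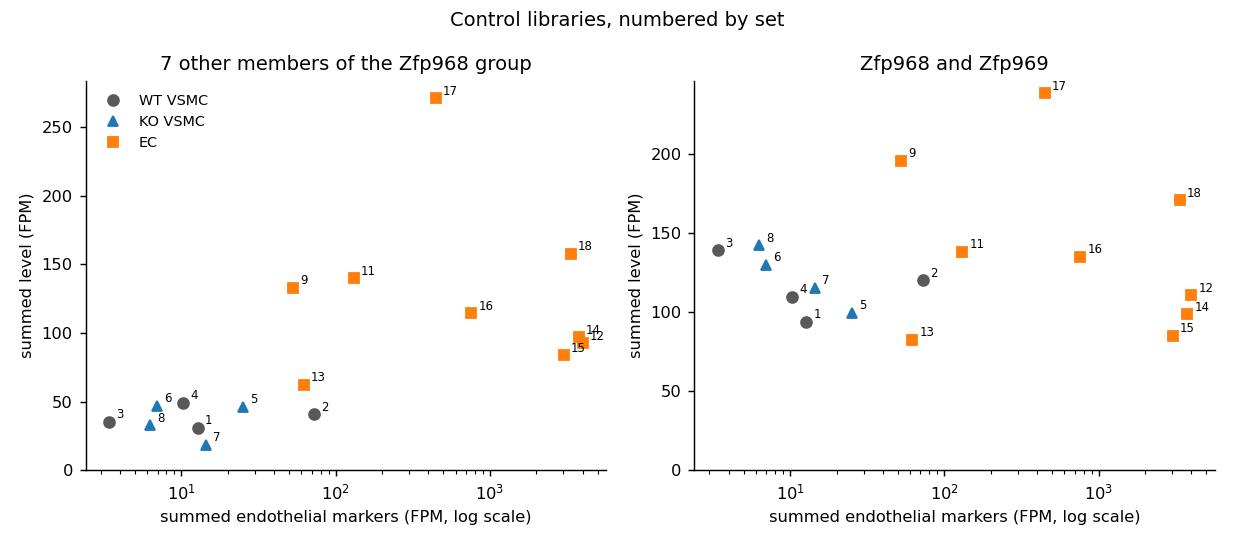
Summed FPM of the 7 members of the Zfp968 group called in EC (left) and of Zfp968 with Zfp969 (right) against the summed FPM of 8 endothelial markers (log axis), in Control libraries numbered by set. On the left all EC libraries (62.3 to 271 FPM) lie above all VSMC libraries (18.3 to 48.8 FPM), for members that were picked by this comparison with WT VSMC, and on the right the cell types overlap.

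EGFR status was compared between the Control libraries of the VSMC. In KO VSMC against WT VSMC, 0 of 37 members were called by edgeR or by DESeq2 and 0 had an unadjusted p under 0.05, with a median log2FC of 0.06. Of all 17638 genes, edgeR called 0%, and 3.41% were higher and 2.22% lower at that unadjusted p. Zfp970 was at 5.26 ± 2.44 FPM in KO VSMC and at 8.55 ± 4.40 FPM in WT VSMC (SD, n = 4 each), a log2FC of -0.70 (SE 0.52), and Gm14403 had a log2FC of -0.47 (SE 0.52).

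Of the 37 partners of KRAB proteins, 4 were higher and 1 lower in EC than in WT VSMC, a share no larger than the 15% of all genes called there. Without EC sets 9, 11 and 13 it was 7 higher and 3 lower, these 5 genes included. In that fit, 4954 of all 17384 genes were called, 2579 higher and 2375 lower. Atrx (log2FC 1.36, SE 0.41) and Tasor (1.35, SE 0.37), which act in heterochromatin, Smarcad1 (0.78, SE 0.23), a remodeller, and Cbx1 (0.52, SE 0.17), a heterochromatin protein, were higher. Ehmt2, a histone methyltransferase, was lower (-0.52, SE 0.17). Of the other Zfp genes in the genome, 24 of 364 were higher in EC and 14 lower (59 and 19 of 363 without the 3 sets), with a median log2FC of 0.16, and of the 15 flanking genes tested 4 were lower and 0 higher.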

How the data were processed

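The authors aligned paired-end reads of poly(A) RNA to mm39 with HISAT2 2.1.0, counted them over exons with featureCounts, reads with several alignments included, and deposited raw counts per gene for 69 libraries. The options the study gives for featureCounts name neither a strand nor a fraction setting. Gene positions came from GENCODE on GRCm39, and identifiers without an entry there took 0.0241% of counts. Counts were tested with edgeR 4.0.16 (R 4.3.3; filterByExpr, TMM, quasi-likelihood test, set number as block, each cell type alone; a joint VSMC model for genotype differences; Control libraries without a block for levels), with Benjamini-Hochberg adjustment over all genes tested. DESeq2 1.42.0 was the main alternative. FPM are counts per 1000000 after TMM over all libraries. Filtered tables held 36 members in WT VSMC, 37 in KO VSMC, 38 in EC and 37 in the joint models. A member that passed only through the group where it is high had to differ.

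The set numbers are described by the study as cells of 1 animal and passage, and libraries of a set deviated together (lowest correlation 0.516). No pair of libraries within a group agreed within sampling noise. The fits were tested on simulated data, where the comparison of levels between cell types recovered a smaller share of the changed genes than the stressor comparisons. The members and gene lists were chosen with earlier results of these data known. Named were Zfp970 and Gm14403, the 8 members with the highest mean FPM in each cell type, members past an FDR of 0.05, and, where stated, others. With 3 or 4 VSMC sets and the set as block, stressor p-values measure the spread left after each culture's own level is taken out. For levels, fitted without a block, they measure the spread between cultures. Alternatives were DESeq2, edgeR with DESeq2 size factors, no filter on counts, no block, only the groups compared, the study's DEG criteria, libraries left out, the animal as block and summed counts per set.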

Additional observations from a re-analysis of the deposited data

Results flagged for a closer look

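In groups of 4 to 10 libraries, 13 of 79 sets of values held a library whose gap to the others passed Dixon's critical value, which chance gives in about 1 of 20 groups. Of these, 11 concerned EC set 17, so they are not independent of each other.

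The summed level of all members in EC set 17 was 1130 FPM under Control (other sets 364.5 to 749.2), 915.3 FPM under HG + FFA (505.4 to 707.0) and 1114.9 FPM under ALL (420.7 to 771.4). The sum of the Zfp968 group in its Control library was 509.2 FPM (144.6 to 328.6), and that of the Gm4724 group under ALL was 441.8 FPM (190.6 to 298.9). Under Control, Gm14288 was at 48.88 FPM in this set (10.48 to 25.88 in the others), Zfp1009 at 47.82 FPM (9.477 to 27.61), Zfp965 at 44.28 FPM (8.848 to 24.01) and Zfp973 at 34.81 FPM (7.129 to 20.26). Zfp970 was at 27.36 FPM under Control (5.409 to 16.42) and at 21.8 FPM under AII + NA (6.995 to 14.31). Set 18, from the same animal, had a summed level of 698.7 to 862 FPM over its conditions.

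In WT VSMC, Zfp970 under HG + FFA was at 16.04 FPM in set 2, below the other sets at 23.73 to 25.25 FPM. The summed level under AII + NA was 287.7 FPM in set 3, below 360.1 to 372.0 FPM in the others.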

How the results depend on the processing

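The number of members called depended on few choices. Leaving the set out of the model (no replicate block) gave 0 members in WT VSMC under HG + FFA and under ALL, and 0 in EC under both. Of all genes, this model called 0 of 16905 in WT VSMC and 2 of 17148 in EC under each. Without each replicate in turn, the WT VSMC number was 0 to 2 under HG + FFA and 1 to 2 under ALL, and the KO VSMC number under HG + FFA was 0 to 1. Of all genes, 23 to 85 and 494 to 970 were called in WT VSMC, and 0 to 1442 in KO VSMC. Without a count filter, 1 member was called in WT VSMC under AII + NA, 3 under ALL, 2 for ALL against HG + FFA, and in KO VSMC 1 under HG + FFA and 2 under ALL. DESeq2 called 1 member in KO VSMC and 2 in EC under HG + FFA, where it called 544 and 998 of all genes. In EC under ALL, 0 were called with only the 2 groups compared, with the animal as block, without EC sets 15 and 16, and without EC sets 9, 11 and 13. Of all genes, 154, 134, 292 and 334 were called in these settings. For EC against WT VSMC, the number was 26 with counts summed over the conditions of a set, 3 with only EC sets 9, 11 and 13, and 7 to 12 without each VSMC set in turn. Of all genes, 3546 of 21603, 301 of 17170 and 505 to 1411 were called higher there. The cause of these changes was not tested. The median ratio over members in KO VSMC was 1.26 under HG + FFA and 1.45 under ALL, where the ratio of the sums was 0.998 and 1.14. Leave-one-out values of the log2FC under AII + NA changed sign for Gm14403 in WT VSMC (-0.466 to 0.021) and for Zfp970 (-0.0674 to 0.3505) and Gm14403 (-0.029 to 0.344) in KO VSMC. Members with few counts, and near-identical copies that share reads, limit what can be resolved. The 2 alternatives that left out EC sets 17 or 9, 11 and 13, and the one that used only the latter, were chosen after seeing the data.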
